A study of Mus musculus with 10 samples.

Results

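A set of 8 genes of the macrophage and of complement C1q was followed through spontaneous mouse lymphomas: Csf1r, Cd68, C1qa, C1qb, C1qc, Marco, Vsig4 and Cd163. Every non-control probe whose gene name in the scanner files is one of these 8 genes was taken, which gave 10 of 41174 probes: 3 for Csf1r and 1 for each other gene. Messenger RNA had been profiled on 1 single-colour Agilent array of 60-base probes per mouse, in lymphomas of 5 mice heterozygous for an allele of the C/EBPβ isoform LIP (+/L) and of 5 wild-type mice (+/+). LIP is a short form of the transcription factor C/EBPβ that lacks most of its activating part. The +/L mice were 18 ± 4.06 months old and the +/+ mice 24.9 ± 3.47 months old (SD, n = 5 each), so that the groups differed by -6.9 months (exact two-sided permutation p = 0.0317). Each array came from a separate animal, the tissue is labelled only as lymphoma, and the kind of lymphoma is not given in the labels.

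Macrophages are phagocytes that take up dead cells, microbes and immune complexes, and in a lymphoma they sit among the tumour cells. Csf1r encodes the receptor through which CSF1 and IL-34 keep macrophages alive, and Cd68 a glycoprotein of their lysosomes. C1qa, C1qb and C1qc encode the chains of C1q, the recognition part of the classical complement pathway, which is made largely by macrophages and binds antibody complexes and dying cells. Marco and Vsig4 encode receptors for bacteria and for complement-coated particles, and Cd163 a receptor that clears haemoglobin bound to haptoglobin. In RNA from a whole tumour, fewer cells of a type and less RNA per cell cannot be told apart.

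The C1q chains lie side by side in the genome, and each was read by 1 probe. The probes for C1qb (chr4:136436578-136436637), C1qc (chr4:136445766-136445825) and C1qa (chr4:136452409-136452468), all on the minus strand of mm9, span 15891 bases. The probe sequences of C1qa and C1qb are shown because the comparison between genotypes rests on them, with all letters in lower case as nothing in them is singled out.

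C1qa probe: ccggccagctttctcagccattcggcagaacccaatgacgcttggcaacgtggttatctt
C1qb probe: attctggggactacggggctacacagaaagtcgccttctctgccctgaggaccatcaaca

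The 250 bases before the RefSeq start of C1qb (chr4:136886201-136886450) and of C1qc (chr4:136892915-136893164), both on the minus strand of GRCm38.p6, are shown because the levels of these genes were the most closely correlated across tumours. Capitals mark a match to GGAAGT, the core of sites bound by PU.1 and other ETS factors, searched on both strands. Both matches are its reverse complement.

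C1qb promoter: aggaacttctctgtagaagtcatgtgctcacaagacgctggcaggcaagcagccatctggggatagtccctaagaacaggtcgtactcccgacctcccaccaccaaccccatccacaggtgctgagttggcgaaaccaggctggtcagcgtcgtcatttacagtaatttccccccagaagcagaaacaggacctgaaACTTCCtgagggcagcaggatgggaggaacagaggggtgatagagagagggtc
C1qc promoter: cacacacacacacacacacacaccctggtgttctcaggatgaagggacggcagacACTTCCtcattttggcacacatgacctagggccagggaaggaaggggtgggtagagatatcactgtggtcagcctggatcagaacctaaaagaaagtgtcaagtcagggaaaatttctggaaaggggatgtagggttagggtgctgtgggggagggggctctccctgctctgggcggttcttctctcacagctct

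The match lies 53 to 48 bases before the C1qb start and 195 to 190 bases before the C1qc start. Of 6 of the 8 genes with an entry in the RefSeq promoter table, Vsig4 also held GGAAGT (63 to 58 bases before its start), and 19.7% of 32851 windows of this length held it. The motif TTGCNNAA, the core of C/EBP sites, likewise searched on both strands and not overlapping the other, was found in Cd68 (43 to 36 bases before its start) among these 6 and in 9.56% of all windows. A match is a run of letters and not a measured binding site.

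Between 48.0% and 66.7% of non-control spots on an array were well above background, and 0 were saturated. Levels are given as log2 of the processed signal relative to the array's own 75th percentile. That percentile was itself higher in +/L arrays (434 ± 129) than in +/+ arrays (288 ± 61.1; SD, n = 5 each; exact permutation p = 0.0317), a gap of 0.58 on the log2 scale that enters every relative level. Levels of the 6 genes measured on every array were not correlated with it past adjustment (18 relations with the percentile, the share of spots above background and age, lowest adjusted permutation p = 0.669 for r and 0.265 for rho). Before adjustment the C1q genes ran against the percentile, with rho of -0.745 for C1qa, -0.600 for C1qb and -0.648 for C1qc (permutation p = 0.0173, 0.0735 and 0.0496). Their r with it was -0.47, -0.39 and -0.43 over all tumours, and -0.755, -0.710 and -0.711 without the 2 tumours farthest from its median. The part of the percentile in the C1q differences was not tested. By Xist and the Y-linked genes Ddx3y, Eif2s3y and Kdm5d, 2 arrays did not match the labelled sex (+/L mouse 20 and +/+ mouse 11). The description labels of 2 other arrays (+/L mouse 866 and +/+ mouse 17) give another slide than the file headers. Results are given below with and without these arrays where they differ by more than 1.5 times, and slides are those of the headers. The number of arrays, 5 in each group, limits the precision of every comparison.

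The C1q genes read lower in +/L than in +/+ lymphomas. C1qa stood at 5.46, 5.94, 3.23, 5.45 and 6.23 in +/L mice 20, 23, 517, 688 and 866, against 6.28, 6.39, 6.56, 7.10 and 7.16 in +/+ mice 11, 17, 19, 40 and 101. The groups did not overlap, but the highest +/L tumour and the lowest +/+ tumour were close, and +/L mouse 517 lay far below every other tumour. On average C1qa was at 5.26 ± 1.18 in +/L and 6.70 ± 0.41 in +/+ lymphomas (SD, n = 5 each), 0.369 times the +/+ level, a difference of -1.44 ± 0.51 (SE) with an exact two-sided permutation p of 0.00794, the smallest that 5 against 5 can give. Across 17775 genes, its limma adjusted p was 0.543.

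C1qc, which encodes the C chain of C1q, had the same pattern. Its levels were 5.90, 5.89, 3.84, 5.81 and 6.53 in +/L mice 20, 23, 517, 688 and 866, against 6.67, 6.79, 6.67, 7.28 and 7.19 in +/+ mice 11, 17, 19, 40 and 101. The groups again did not overlap, with mouse 517 the lowest. C1qc averaged 5.59 ± 1.02 in +/L and 6.92 ± 0.29 in +/+ lymphomas, a difference of -1.33 ± 0.44 (SE; exact permutation p = 0.00794, limma adjusted p = 0.539).

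C1qb stood at 4.70, 4.53, 1.94, 4.37 and 5.46 in +/L mice 20, 23, 517, 688 and 866, against 5.30, 5.72, 5.48, 6.30 and 6.10 in +/+ mice 11, 17, 19, 40 and 101. Here the groups overlapped, because +/L mouse 866 was above +/+ mouse 11 and just below +/+ mouse 19. The means were 4.20 ± 1.33 in +/L and 5.78 ± 0.42 in +/+ lymphomas, a difference of -1.58 ± 0.57 (SE; exact permutation p = 0.0159, limma adjusted p = 0.543).

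Within the 3 slides the differences were -1.29, -1.70 and -0.63 for C1qa, -1.48, -2.07 and -0.33 for C1qb, and -1.18, -1.81 and -0.40 for C1qc. All 9 of these within-slide values had the same sign, and each slide held 1 or 2 arrays of a genotype. Without +/L mouse 517 the differences were -0.93 for C1qa, -1.02 for C1qb and -0.89 for C1qc (limma adjusted p = 0.755 each). When age was added to the limma model they were -1.90, -2.26 and -1.78 (adjusted p = 0.833 for every gene). Before adjustment the C1q genes ran with age, with rho of 0.620, 0.485 and 0.632 (permutation p = 0.0614, 0.161 and 0.0554). Their r with age was 0.33, 0.28 and 0.33 over all tumours. It was 0.649, 0.632 and 0.638 without the 2 tumours farthest from the median age. The groups differed in age, so the parts of age and genotype cannot be told apart.

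**Figure D1:**
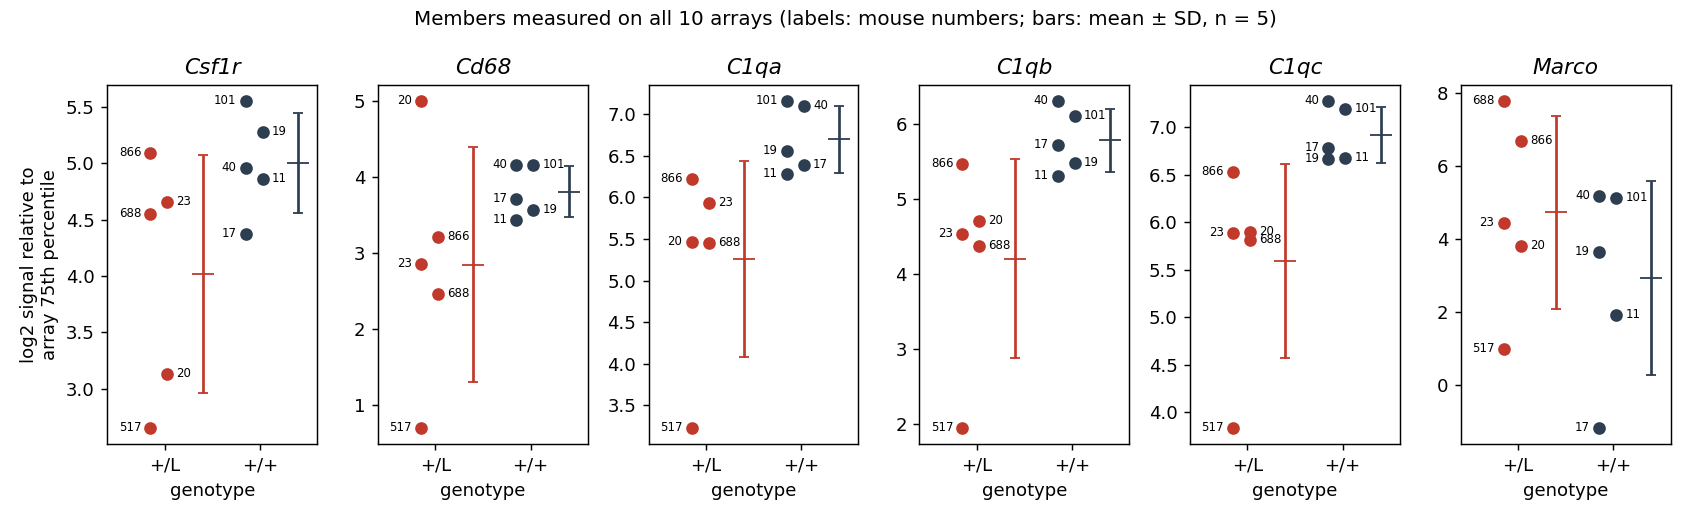
Level of each of 6 genes (log2 signal relative to the array's 75th percentile, y axis) in the lymphomas of 5 +/L mice (red, left) and 5 +/+ mice (dark, right), 1 point per mouse with its number, and bars for the mean ± SD. C1qa and C1qc do not overlap between genotypes, +/L mouse 517 is the lowest +/L tumour in every panel, and +/L mouse 20 is the highest of all for Cd68.

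Csf1r and Cd68, general markers of macrophages, also read lower on average in +/L lymphomas, but their groups overlapped. For Csf1r the probe of highest mean (chr18:61290384-61290443, plus strand, mm9) stood at 3.14, 4.65, 2.65, 4.55 and 5.09 in +/L mice 20, 23, 517, 688 and 866, against 4.86, 4.37, 5.27, 4.96 and 5.55 in +/+ mice 11, 17, 19, 40 and 101. Mice 517 and 20 were the lowest, and the other 3 +/L tumours lay within the +/+ range. Its means were 4.02 ± 1.06 in +/L and 5.00 ± 0.44 in +/+ lymphomas, a difference of -0.99 ± 0.47 (SE; exact permutation p = 0.0952, limma adjusted p = 0.595).

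The other Csf1r probes differed by -0.98 (chr18:61289398-61289758, a span longer than the probe) and by -0.43 (chr18:61269422-61269481), with exact permutation p of 0.0952 and 0.294. Over the 10 arrays the first of these followed the main probe closely (r = 0.993), and the dimmest less so (r = 0.698), as a description of probes on shared arrays. Csf1r differed by -0.65 without mouse 517, by -0.63 among female-labelled mice and by -1.52 with age as a covariate, none past adjustment.

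Cd68 (chr11:69478314-69478373, minus strand, mm9) stood at 5.00, 2.86, 0.69, 2.46 and 3.21 in +/L mice 20, 23, 517, 688 and 866, against 3.44, 3.71, 3.56, 4.17 and 4.15 in +/+ mice 11, 17, 19, 40 and 101. Of the +/L tumours, 4 were below all +/+ tumours and mouse 20 was above them. The difference of -0.96 ± 0.64 (SE; means 2.84 ± 1.55 in +/L and 3.81 ± 0.34 in +/+) was within the spread between tumours (exact permutation p = 0.206, limma adjusted p = 0.695). It was -0.42 without mouse 517, -1.50 without mouse 20 and -1.59 without mice 20 and 11, whose labelled sex did not match.

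Marco read higher on average in +/L lymphomas. It stood at 3.79, 4.44, 0.98, 7.76 and 6.66 in +/L mice 20, 23, 517, 688 and 866, against 1.93, -1.18, 3.65, 5.18 and 5.11 in +/+ mice 11, 17, 19, 40 and 101. Both groups were spread widely and overlapped, with mouse 688 the highest and +/+ mouse 17 the lowest. The difference of 1.79 ± 1.48 (SE; means 4.73 ± 2.65 in +/L and 2.94 ± 2.66 in +/+) did not exceed this spread (exact permutation p = 0.317, limma adjusted p = 0.759).

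Marco's probe is listed with a span of 20 bases (chr1:122371115-122371134, mm9) although the probe is longer, so the listed position covers a part of it. Its difference was 0.28 without mice 866 and 17, 0.76 without mouse 17, 1.03 without mouse 688 and 2.73 without mouse 517, and 0.84 with the slide of the description labels as a block.

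Cd163 (chr6:124280484-124280543, plus strand, mm9) was well above background in 3 of 5 +/L tumours (mice 20, 688 and 866) and in 0 of 5 +/+ tumours. It stood at 1.27, -3.64, -7.48, -3.64 and -0.03 in +/L mice 20, 23, 517, 688 and 866, against -7.65, -8.03, -7.52, -5.85 and -6.53 in +/+ mice 11, 17, 19, 40 and 101. Mouse 23 read close to mouse 688 without being called well above background, and the values of spots not well above background are shown without an order. With +/+ tumours at their detection floor, the mean of the +/L tumours was 5.56-fold higher (limma adjusted p of the fitted difference = 0.539). That mean takes mice 23 and 517 at their own readings, which were not well above background. The floor is the lowest signal of any probe well above background, and averaged -5.18 in the +/+ arrays. Mouse 23 read above that average without being called well above background, so the floor may lie below the detection limit of this probe. For both reasons the fold over the floor is not a least value. It was 2.79-fold without mouse 20, 3.50-fold without mouse 866 and 12.7-fold without mouse 517. On the log2 scale the fold over the floor was 2.47. The fitted difference was below that after normexp correction with quantile normalization (1.62) and in the deposited value table (1.26). With scaling to the median of the probes well above background everywhere, the fitted difference was 4.47. The fold over the floor was computed with the main scaling only.

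Vsig4 (chrX:93443157-93443216, minus strand, mm9) was well above background in 2 of 5 +/L tumours (mice 20 and 866) and in 0 of 5 +/+ tumours, too few to be tested with the other genes. Its levels were -2.38, -5.58, -5.76, -5.89 and -4.49 in +/L mice 20, 23, 517, 688 and 866, against -7.30, -5.99, -5.77, -5.07 and -6.50 in +/+ mice 11, 17, 19, 40 and 101. Against the detection floor of the +/+ arrays its +/L mean was 1.27-fold higher, with mice 23, 517 and 688 entered at readings not well above background. This rests on mouse 20, without which the +/L mean was below the floor and no fold can be given.

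**Figure D2:**
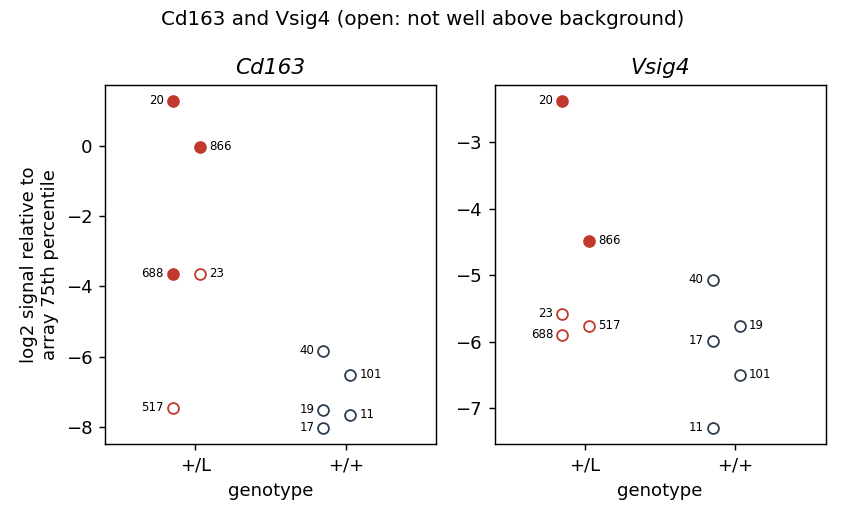
Level of Cd163 and Vsig4 (log2 signal relative to the array's 75th percentile, y axis) in 5 +/L lymphomas (red, left) and 5 +/+ lymphomas (dark, right), with 1 point per mouse. Filled points are well above background: 3 for Cd163 and 2 for Vsig4, each in +/L tumours, while open points are not well above background and have only an upper limit.

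Of the 8 genes, 7 passed the filter of 3 arrays well above background. At an unadjusted limma p under 0.05, 3 of the 7 were lower (C1qa, C1qb and C1qc), against 5.44% of 17775 genes tested. One, Cd163, was higher, against 3.14% of all genes, and it passed the filter through +/L arrays alone, so that its call is no support. The groups did not overlap for 2 of the 7 genes, both lower, against 1.26% of all genes in that direction, 0.54% in the other and 1.8% in both. After Benjamini-Hochberg adjustment 0 of the 7 and 0 of 17775 genes (0%) passed, with 1525 genes (8.58%) at an unadjusted p under 0.05. The median difference of the 7 genes was -0.99, and that of all genes -0.02. Of the 1525 genes, 63.4% were lower in +/L, and 50.5% of 1437 were with scaling to the median of the probes well above background everywhere. That scaling moved every gene's difference by the same 0.05, so it could not have changed the sign for C1qa, C1qb and C1qc.

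Across the 10 tumours the C1q genes moved together. The 15 pairs among the 6 genes measured on every array were compared, with permutation p adjusted over the pairs, and 9 passed. C1qb and C1qc correlated at r = 0.996 (rho = 0.964), C1qa and C1qc at 0.989 (rho = 0.939), and C1qa and C1qb at 0.985 (rho = 0.952). The permutation p of r was 2e-05, 4e-05 and 5e-05 for these pairs and 0.00025 for each after adjustment, and the adjusted permutation p of rho was 0.0006 for C1qb with C1qc and 0.00135 for the other 2 pairs. Without the 2 tumours farthest from the median of the first gene (mouse 517 with 101 or 688) the values were 0.983, 0.952 and 0.933. They were 0.995, 0.981 and 0.972 when centred on genotype, and 0.997, 0.988 and 0.986 when centred on slide. These 3 pairs passed in each of the 20 alternatives run, with coefficients from 0.939 to 0.999.

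Csf1r followed the C1q genes at r = 0.869 (C1qa), 0.805 (C1qb) and 0.831 (C1qc), with rho of 0.782, 0.661 and 0.600 (adjusted permutation p of r 0.0038 to 0.0162 and of rho 0.0396 to 0.121). Without mice 517 and 20, the farthest from the median Csf1r level, r was 0.658, 0.516 and 0.541. Without mouse 517 alone it was 0.726, 0.549 and 0.620 and no longer passed (adjusted permutation p = 0.0687, 0.298 and 0.183), so that these calls depend on that tumour. Centred on genotype, r was 0.803, 0.698 and 0.741 (adjusted permutation p = 0.0203, 0.0876 and 0.0435).

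Cd68 followed the C1q genes at r = 0.765 (C1qa), 0.813 (C1qb) and 0.789 (C1qc), with rho of 0.636, 0.733 and 0.733 (adjusted permutation p of r 0.027 to 0.0404 and of rho 0.0516 to 0.103). Here 2 tumours pulled in opposite ways. Without mouse 20, whose Cd68 was the highest while its Csf1r was among the lowest, r was 0.992, 0.992 and 0.994. Without mouse 517 it was 0.275, 0.430 and 0.358, and without both it was 0.978, 0.972 and 0.982. These 3 relations no longer passed without +/L mouse 517, 688 or 23 (adjusted permutation p = 0.534 to 0.580, 0.081 to 0.0976 and 0.0534 to 0.0572). Those with C1qa and C1qc also failed after normexp correction with quantile normalization (0.0553 and 0.0588), in the deposited value table (0.0581 and 0.0673) and without mice 866 and 17 (0.0637 and 0.0502). Centred on genotype, r was 0.710, 0.782 and 0.756 (unadjusted permutation p = 0.170, 0.100 and 0.100). Centred on slide it was 0.715, 0.745 and 0.722 (0.117, 0.105 and 0.124).

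Csf1r and Cd68 were not correlated past adjustment (r = 0.393, rho = 0.261, adjusted permutation p = 0.353 for r and 0.640 for rho). The coefficient was 0.889 without mouse 20 (adjusted permutation p = 0.0155) and -0.38 without mouse 517. Marco's 5 pairs had r from 0.124 to 0.407 and did not pass. When values were centred on genotype, Marco passed with Csf1r (r = 0.783, adjusted permutation p = 0.0204) and with C1qa (r = 0.703, adjusted permutation p = 0.0422). In all, 3 pairs passed without mouse 517, 3 when centred on slide and 4 by rank.

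**Figure D3:**
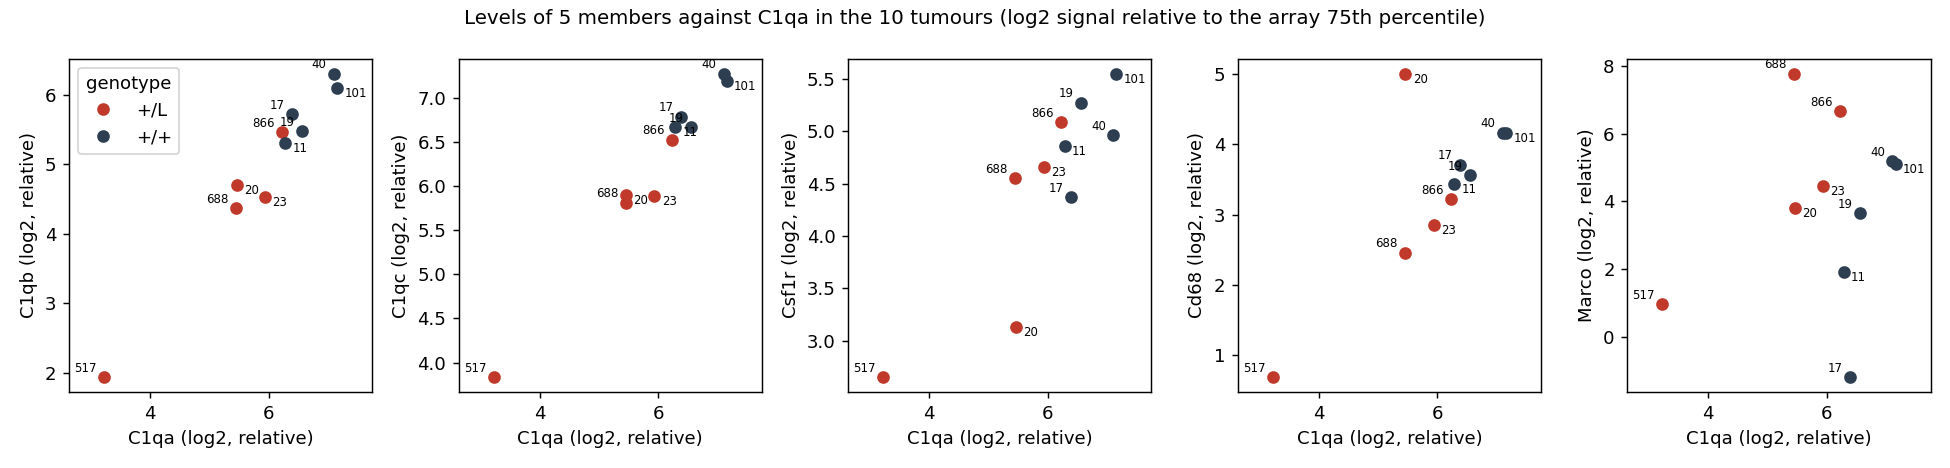
Level of C1qb, C1qc, Csf1r, Cd68 and Marco (y axes) against that of C1qa (x axis), all as log2 signal relative to the array's 75th percentile, with 1 point per tumour and its mouse number, in red for 5 +/L and dark for 5 +/+ mice. C1qb and C1qc lie along a line in both genotypes, mouse 517 sits at the low end of each panel, mouse 20 is off the line for Csf1r and Cd68, and Marco shows no line (r = 0.250).

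Each of the 6 genes was then compared with 16 list scores, a score being the mean of the listed genes' centred log2 levels in a tumour, which gave 96 relations, of which 7 passed. Csf1r followed the myeloid transcription factors at r = 0.927 (rho = 0.952, adjusted permutation p = 0.0067 and 0.0144), and r was 0.897 without mice 517 and 20. C1qa, C1qb and C1qc followed the same list at 0.821, 0.776 and 0.791 (adjusted permutation p = 0.0163 to 0.0399). With the macrophage lysosome, iron and effector genes their r was 0.898, 0.922 and 0.919 (adjusted permutation p = 0.0163 to 0.0228). The macrophage surface and uptake receptors did not pass with them, at r of 0.430, 0.517 and 0.456 (adjusted permutation p = 0.652 each). Centred on genotype, these r were 0.662, 0.776 and 0.728 (unadjusted permutation p = 0.071, 0.016 and 0.030), none past adjustment. Centred on slide, they were 0.159, 0.212 and 0.153. Csf1r was at 0.273 with that receptor list (adjusted permutation p = 0.810). By rank, the relation of Csf1r alone passed. Counts of passing relations were 1 without mouse 517, 4 without +/+ mouse 40, 3 in the deposited value table and 0 when centred on slide or on genotype.

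The lists of other cells did not follow these genes past adjustment. Over B cell, T cell, plasma cell, neutrophil, monocyte, dendritic cell, erythroid, stromal and proliferation genes the 54 relations had r from -0.60 to 0.50 (lowest adjusted permutation p = 0.544), and those of the C1q genes lay between -0.43 and 0.47. B cell scores spanned -1.85 to 1.10 in +/L lymphomas and 0.01 to 0.34 in +/+ lymphomas. T cell scores spanned -2.06 to 0.83 in +/L lymphomas and -0.89 to 1.64 in +/+ lymphomas. Genes of 1 list can move together, and of all 17775 genes 9225 read lower in +/L and 8550 higher. Of 10 T cell genes 10 read lower in +/L and 0 passed, and of 10 B cell genes 8 read lower and 0 passed. Of 9 neutrophil genes 9 read higher, with a median of 1.28, and 0 passed. The part of such cells in the C1q differences was not tested.

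The genes of these lists with the highest mean absolute r with the C1q genes were Pax5 (-0.50) and Ms4a1 (-0.43) among B cell genes, Cd3e (0.39) and Cd3d (0.19) among T cell genes, and Jchain (-0.55) and Mzb1 (-0.24) among plasma cell genes, each r being with the mean of the C1q genes. S100a9 (-0.42) and S100a8 (-0.35), of neutrophils, were negative. For monocytes they were Ly6c2 (0.46) and Ccr2 (-0.36), for dendritic cells Cd209a (-0.44) and Siglech (-0.31), and for red cells Hba-a1 (0.49) and Alas2 (0.43). Among stromal genes they were Pdgfra (0.64) and Pdgfrb (0.55), receptors of connective tissue cells, and for proliferation Bub1 (0.35) and Plk1 (0.30). These are descriptions over 10 arrays that share the genes' own scaling. Cd209a was dim, at -5.32 ± 0.18 in +/L and -6.23 ± 0.88 in +/+ lymphomas, where the detection floor used for Cd163 averaged -5.18.

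**Figure D4:**
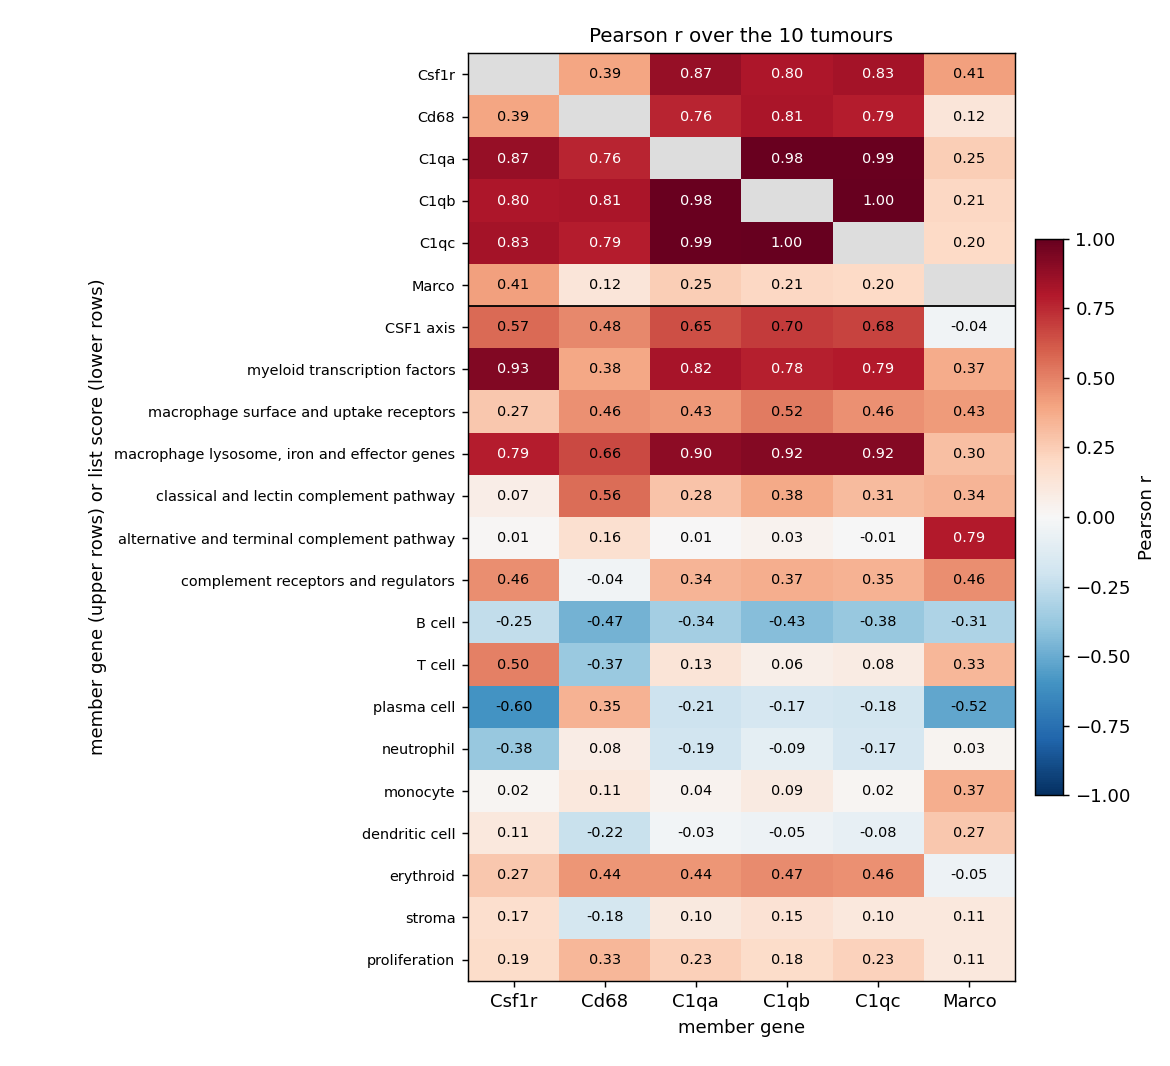
Pearson r over the 10 tumours of 6 genes (columns) with each other (upper rows) and with 16 list scores (lower rows), with the value written in each cell and coloured from -1 (blue) to 1 (red). The C1q block reads 0.98 and above, the myeloid transcription factor and macrophage lysosome rows are the darkest of the list rows for the C1q genes, and the rows of other cell types are pale.

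Of 14790 candidate genes with a symbol, those most like the mean of the 3 C1q genes were Pigz (r = 0.975), Fnip2 (0.973), Acp2 (0.969), Abhd12 (0.968), Plxnb2 (0.968), Ms4a7 (0.965), Lipg (0.963), Cxcl16 (0.962) and Slc11a1 (0.957). Acp2 encodes a lysosomal enzyme, Slc11a1 a metal transporter of the phagosome, Cxcl16 a chemokine, Lipg a lipase and Ms4a7 a membrane protein of macrophages. Their differences between +/L and +/+ ran from -1.55 (Slc11a1) to -0.73 (Ms4a7), none past adjustment, and after centring on genotype their r was still 0.919 (Slc11a1) to 0.978 (Ms4a7). An r of 0.9 or more was reached by 55 of 17775 genes (0.309%).

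Most like Csf1r were Aif1 (r = 0.967), which encodes a macrophage calcium-binding protein, Prxl2b (0.964) and Rxra (0.952), a nuclear receptor gene. Nfix (0.954), Zdhhc9 (0.952) and Chid1 (0.950) were most like Cd68, and Pigyl (0.950), Clybl (0.917) and Slirp (0.877) most like Marco. Upk3b (0.989), Myl10 (0.952) and Duoxa1 (0.938) were most like Cd163, over arrays on which Cd163 was mostly below background. None of the genes most like Cd68, Marco or Cd163 was among those most like C1q. These likenesses were chosen as the highest over all genes and are given without a test.

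The ligands of Csf1r and receptors for related growth factors were also measured. Csf1, its main ligand, stood at 1.38 ± 0.84 in +/L and 1.63 ± 0.31 in +/+ lymphomas (SD, n = 5 each), a difference of -0.25. Il34, the other ligand, differed by -0.56 (1.03 ± 0.69 in +/L and 1.59 ± 0.37 in +/+). Csf2ra, a receptor chain for GM-CSF, differed by -1.18 ± 0.37 (SE), and Csf3r, the receptor for G-CSF, by -1.16 ± 0.43. Of 6 genes of this list 1 was higher and 5 lower, 2 of the lower ones at an unadjusted p under 0.05 (5.44% of all genes were) and 0 past adjustment (lowest limma adjusted p = 0.539).

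Of 8 myeloid transcription factor genes 3 were higher and 5 lower, 3 of the lower ones at an unadjusted p under 0.05, where 5.44% of all genes were lower. Spi1, which encodes PU.1 and drives macrophage genes, stood at -1.61 ± 0.50 in +/L and -0.77 ± 0.50 in +/+ lymphomas, a difference of -0.84 ± 0.31 (SE), and its r with the mean of the C1q genes was 0.89. Maf, a factor of mature macrophages, differed by -1.23 ± 0.37, and Nr1h3, the oxysterol receptor LXRα, by -1.27 ± 0.48. The median of the list was -0.71, and 0 genes passed adjustment (limma adjusted p = 0.539 for Maf, 0.552 for Spi1 and 0.557 for Nr1h3).

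Macrophage surface and uptake receptors were split, with 10 of 19 higher, 9 lower and a median of 0.05. Sirpa, the receptor for the signal that holds phagocytosis back, differed by -0.95 ± 0.31 (SE), Axl, a receptor for dying cells, by -1.11 ± 0.37, and Cx3cr1, the fractalkine receptor, by -1.86 ± 0.71. Mrc1, the mannose receptor, differed by 2.58 ± 0.99 and was named after its values were seen, as the 1 higher gene at an unadjusted p under 0.05 in this list. Of all genes, 3.14% were higher at that unadjusted p. Adgre1, a surface receptor gene of macrophages, stood at 2.17 ± 1.14 in +/L and 2.69 ± 1.82 in +/+ lymphomas, and Cd14, the endotoxin co-receptor, at 1.32 ± 0.85 in +/L and 1.33 ± 1.44 in +/+. The limma adjusted p was 0.539 for Sirpa and Axl and 0.557 for Cx3cr1 and Mrc1.

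Of 15 macrophage lysosome, iron and effector genes 3 were higher and 12 lower, with a median of -0.58, against 9225 lower of 17775 genes in all. Mpeg1, a pore-forming protein of phagocytes, differed by -0.81 ± 0.26 (SE), Aif1 by -0.74 ± 0.32 and Fcer1g, a signalling chain of Fc receptors, by -1.33 ± 0.62. The first 2 had an unadjusted p under 0.05 (5.44% of all genes were lower at that p), and 0 passed adjustment (limma adjusted p = 0.539, 0.568 and 0.586). Lyz2, the lysozyme gene of myeloid cells, was among the brightest of the list at 7.96 ± 1.23 in +/L and 8.42 ± 0.33 in +/+ lymphomas, and its r with the mean of the C1q genes was 0.06.

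Other components of the complement pathway were also measured, some of them higher and some lower in +/L lymphomas. C1ra and C1s1, the proteases that C1q activates, stood at 2.48 ± 0.50 and 3.15 ± 0.61 in +/L and at 2.16 ± 0.52 and 2.68 ± 0.60 in +/+ lymphomas, differences of 0.32 and 0.47, and their r with the mean of the C1q genes was 0.05 and -0.23. C3, the protein on which all complement routes meet, differed by -0.75 ± 0.24 (SE; 8.56 ± 0.47 in +/L and 9.31 ± 0.11 in +/+). C4b, cleaved after C1 activation, differed by -0.80 ± 0.57, and its r with C1q was 0.86. Masp1, a protease of the lectin route, differed by 1.06 ± 0.77. It was dim, at -4.08 ± 1.71 in +/L and -5.15 ± 0.90 in +/+ lymphomas, where the detection floor used for Cd163 averaged -5.18. Of 9 measured genes of the classical and lectin pathways 5 were higher and 4 lower, 1 of them (C3) at an unadjusted p under 0.05 (limma adjusted p = 0.539). Of all genes, 5.44% were lower at that unadjusted p.

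In the alternative and terminal pathways, 4 of 8 measured genes were higher and 4 lower. Cfp, the gene of properdin, differed by -0.90 ± 0.32 (SE), C6, a part of the membrane attack complex, by 2.35 ± 0.83, and Cfd, the adipsin gene, which fat cells also express, by 5.03 ± 1.98 (limma adjusted p = 0.539, 0.539 and 0.557). The score of this list correlated with Marco at r = 0.792 (rho = 0.661, adjusted permutation p = 0.0731 and 0.307), which did not pass, and with C1qa at 0.01. Centred on genotype, its r was 0.771 with Marco and 0.662, 0.697 and 0.694 with C1qa, C1qb and C1qc. Unadjusted permutation p was 0.019, 0.035, 0.018 and 0.017, none past adjustment. Centred on slide, r with the C1q genes was -0.17, -0.17 and -0.20. Among receptors and regulators 5 of 14 measured genes were higher and 9 lower. Cd59a, which blocks the membrane attack complex, differed by 1.50 ± 0.36, while Itgb2 and Itgax, the chains of complement receptor CR4, differed by -0.92 ± 0.26 and -1.74 ± 0.55 (limma adjusted p = 0.539 each).

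**Figure D5:**
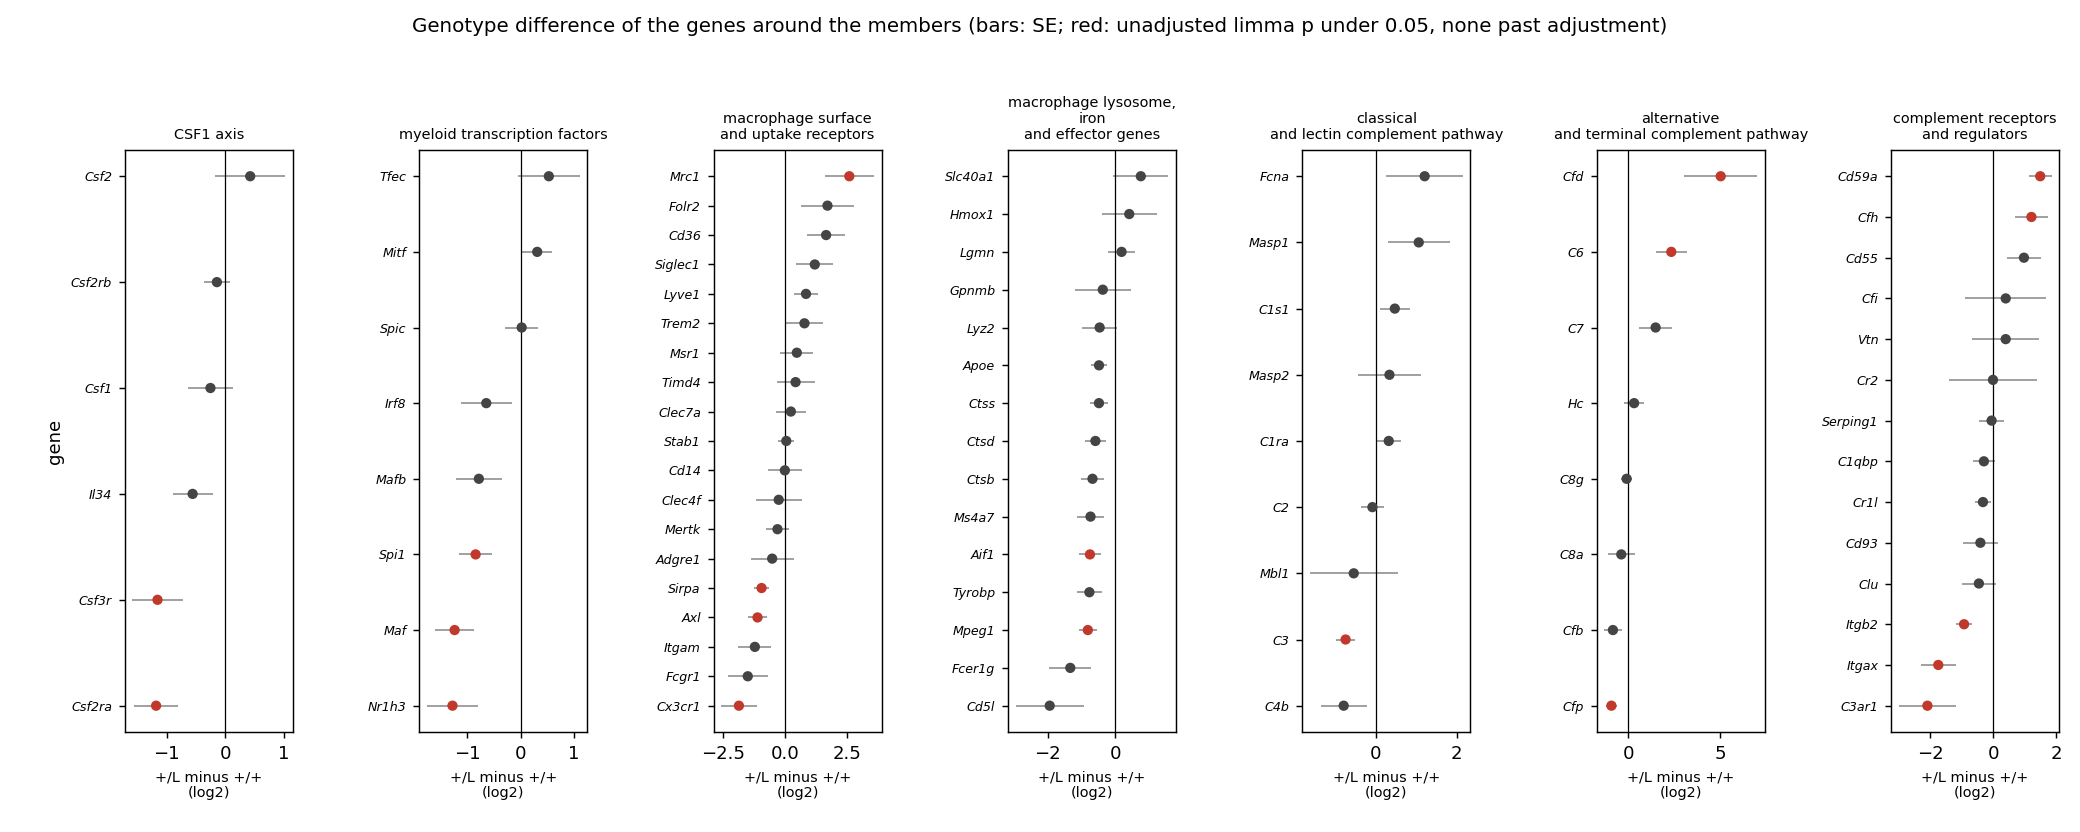
Difference between +/L and +/+ lymphomas (log2, x axis; bars are SE) for each measured gene of 7 lists (rows), with red points at an unadjusted limma p under 0.05. The CSF1 axis, myeloid transcription factor and macrophage lysosome lists lie mostly left of 0 with medians of -0.41, -0.71 and -0.58, while the surface receptor and complement lists lie on both sides, and no point passes adjustment.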

How the data were processed

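Per the file headers, the authors' intensity values came from Agilent's Feature Extraction software (version 10.5.1.1), with spatial and multiplicative detrending of the processed signal. The deposited value table holds log2 values made by an unstated background step; it served as an alternative. Flags for spots well above background come from the same software, per the file headers.

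Processed signals were divided by the 75th percentile of the non-control spots on their array and taken to log2. Outlier-flagged spots were left out, spots of a probe were averaged, and 26410 probes kept, namely those that 3 or more arrays called well above background. The probe of highest mean stood for its gene. Names were updated through a table of RefSeq genes (25089 probes by accession, 6339 by symbol, 1639 by synonym and 8107 left as in the files). Genotypes were compared with limma 3.58.1 in R 4.3.3 without covariates, tested first on simulated data, calling genes at p under 0.05 after Benjamini-Hochberg adjustment. Correlations used 100000 permutations of the arrays, within slide or genotype where values were centred on it. For folds over the floor, each +/+ array stood at its detection floor, the lowest signal among probes well above background or the probe's own if higher. The +/L values were taken as read.

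The 8 genes and all lists were chosen with earlier results of these data known. Named genes were the 8, 10 fixed pathway genes, the 3 of lowest p per macrophage or complement list, the most alike genes, and for other cell lists the 2 most correlated with C1q. A gene this rule names is not reported here. Coordinates are those of the files (mm9); exon and UTR annotation was not used here. Alternatives changed background correction, scaling, filter, probe rule, limma options, age, slide and the arrays used.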

Additional observations from a re-analysis of the deposited data

Results flagged for a closer look

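The array of +/L mouse 517 stood apart from the other +/L arrays for 2 genes. Its C1qc level was 3.84, with the nearest +/L tumour at 5.81, a gap of 0.733 of the group's whole range. Its C1qa level was 3.23, with the nearest at 5.45, a gap of 0.741. Both gaps exceed Dixon's 95% critical value of 0.71 for 5 samples. Of 20 combinations of probe and genotype looked at, 2 were singled out, and chance singles out about 1 in 20. The 2 genes are not independent, since they correlated at 0.989.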

How the results depend on the processing

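The sign of the genotype difference held for Csf1r, Cd68, C1qa, C1qb, C1qc and Marco under every alternative run, and none of them passed adjustment in any. Cd163 read higher in the 22 alternatives that held it, none past adjustment. It passed the filter through +/L arrays alone, so its sign is no support. Leaving out 1 mouse at a time gave -1.68 to -0.93 for C1qa, -1.90 to -1.02 for C1qb, -1.56 to -0.89 for C1qc, -1.25 to -0.65 for Csf1r, -1.50 to -0.42 for Cd68, 0.76 to 2.73 for Marco and 3.42 to 5.61 for Cd163, whose +/+ values were not well above background. Over all genes, the count at a limma adjusted p under 0.05 was 0 at first, 1 with normexp and quantile normalization, 1 in the deposited table and 0 to 3 without 1 mouse (3 without +/L mouse 517). At an unadjusted p it was 669 with the slide of the labels as a block, 2521 without mice 20 and 11, 2314 without mouse 20 and 913 without mouse 101, against 1525.

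Of 15 pairs, 9 passed at first, 4 by rank, 3 when centred on slide and 3 to 10 without 1 mouse. Leaving out 1 mouse at a time gave -0.38 to 0.89 for Csf1r with Cd68 and, for Marco, -0.31 to 0.31 with Cd68, -0.15 to 0.45 with C1qa, -0.24 to 0.46 with C1qb and -0.25 to 0.44 with C1qc, each lowest value being the one without mouse 517. Centred on slide, Marco was at -0.10 with Cd68, -0.047 with C1qb and -0.037 with C1qc, and by rank at -0.030 with Cd68 and -0.018 with C1qc. The cause was not tested. Of 96 relations with list scores, 7 passed at first, 3 in the deposited table, 1 by rank, 0 when centred on slide or genotype, 0 among female-labelled mice, 0 without mice 20 and 11, and 1 to 10 without 1 mouse. Few permutations are possible within slide, which limits the slide-centred counts.

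No paired analysis was possible because the mouse numbers of the genotypes differ. Signal over background limits Cd163 and Vsig4, which 0 +/+ arrays called well above background.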
